A study of Mus musculus with 4 samples.

Results

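Microtubule plus-end proteins and spectraplakins were examined in the E14.5 mouse cortex with and without *Qk*. The 10 genes were *Mapre1*, *Mapre2*, *Mapre3*, *Clip1*, *Clip2*, *Clasp1*, *Clasp2*, *Ckap5*, *Macf1* and *Dst*. They were selected by gene symbol among the 23038 genes with deposited levels. Of 38240 deposited splicing events, 40 carried the gene ID of 1 of these genes, and 31 of the 40 had enough junction tags to be tested, among 11500 tested events in all. The 40 events lay in 8 of the genes, since no event was listed for *Mapre1* or *Mapre2*.

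RNA came from whole cortex of 2 control and 2 *Qk* cKO embryos at E14.5. The controls, which the labels call wild type, carried *Qk* fl/fl alleles according to the methods, and the *Qk* cKO embryos were Nestin-Cre;*Qk* fl/fl littermates. Cre is driven by the Nestin promoter in neural progenitors, so cells outside this lineage keep their *Qk* alleles. *Qk* encodes Quaking, an RNA-binding protein whose nuclear isoform Qki5 acts in pre-mRNA splicing.

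Growing microtubules exchange tubulin mainly at their plus ends. There, the end-binding proteins EB1, EB2 and EB3, encoded by *Mapre1*, *Mapre2* and *Mapre3*, recognise the growing lattice and recruit the CLIP and CLASP proteins. CLIPs link plus ends to membranes and motors, CLASPs stabilise microtubules and promote their rescue, and the tubulin polymerase chTOG, encoded by *Ckap5*, adds tubulin at the tip. *Macf1* and *Dst* encode spectraplakins, giant proteins that join microtubules to actin filaments and, in some *Dst* isoforms, to intermediate filaments. In the developing cortex such proteins serve the radial processes of progenitors, neuronal migration and the growth of axons.

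The sequences below are alternative exons on which the results turn. They were part of a called event or have an equal-length counterpart in a paralog. The 63-nt exons of *Clasp1* and *Clasp2*, also such a pair, are left out. Each sequence is given in the sense direction, with the alternative exon in capitals and 20 nt of the neighbouring exons in lower case. The exons are joined as in the named transcript of GENCODE release M21 (GRCm38, the same build as mm10).
Dst 111-nt exon (Dst-203 exon 96): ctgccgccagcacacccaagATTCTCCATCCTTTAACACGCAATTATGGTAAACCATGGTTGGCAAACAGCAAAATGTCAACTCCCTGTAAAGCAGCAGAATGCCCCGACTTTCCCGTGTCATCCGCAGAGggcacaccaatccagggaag
Dst 18-nt exon (Dst-201 exon 93): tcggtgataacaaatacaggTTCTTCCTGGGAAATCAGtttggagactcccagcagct
Macf1 18-nt exon (Macf1-201 exon 89): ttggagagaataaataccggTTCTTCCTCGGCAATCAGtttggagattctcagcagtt
Macf1 15-nt exon (Macf1-216 exon 5): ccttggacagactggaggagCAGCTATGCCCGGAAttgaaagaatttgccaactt
Macf1 12-nt exon (Macf1-201 exon 85): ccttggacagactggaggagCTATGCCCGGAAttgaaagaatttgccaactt
Clip1 33-nt exon (Clip1-201 exon 8): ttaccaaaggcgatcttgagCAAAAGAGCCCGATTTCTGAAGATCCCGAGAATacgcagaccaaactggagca
Clip1 105-nt exon (Clip1-202 exon 9): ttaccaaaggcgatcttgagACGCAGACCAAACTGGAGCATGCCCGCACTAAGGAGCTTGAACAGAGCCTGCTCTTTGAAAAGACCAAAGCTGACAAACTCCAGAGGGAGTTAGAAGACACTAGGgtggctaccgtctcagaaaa
Clip2 105-nt exon (Clip2-202 exon 9): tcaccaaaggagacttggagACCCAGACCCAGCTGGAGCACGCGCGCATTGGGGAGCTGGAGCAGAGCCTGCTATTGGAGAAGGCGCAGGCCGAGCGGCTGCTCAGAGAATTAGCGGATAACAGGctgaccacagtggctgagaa
Clasp1 upstream 24-nt exon (Clasp1-216 exon 20): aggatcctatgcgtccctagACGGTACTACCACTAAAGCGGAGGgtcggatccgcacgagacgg
Clasp2 upstream 24-nt exon (Clasp2-201 exon 13): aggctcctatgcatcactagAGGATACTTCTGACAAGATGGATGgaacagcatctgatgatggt
Clasp1 downstream 24-nt exon (Clasp1-204 exon 23): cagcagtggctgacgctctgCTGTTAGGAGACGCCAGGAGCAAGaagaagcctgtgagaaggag
Clasp2 downstream 24-nt exon (Clasp2-201 exon 19): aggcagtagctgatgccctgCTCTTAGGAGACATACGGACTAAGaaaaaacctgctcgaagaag

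The deletion of *Qk* was examined first. Junction tags between exons 2 and 3 of *Qk*, per 100 tags between exons 3 and 4, numbered 110.6 and 128.6 in the controls and 7.02 and 8.19 in the *Qk* cKO samples, so both knockout libraries carried the label's deletion. The level of *Qk* itself was 21.1 and 21.7 RPKM (tags scaled by transcript length and sample depth) in the controls and 32.5 and 34.2 RPKM in *Qk* cKO. Depth was between 37942046 and 42994832 tags on genes per sample, a tag being the unit that Quantas counts. Cortical identity markers had a summed level of 293 to 340.1 RPKM in the 4 samples, and the groups overlapped. The summed level of 7 neural progenitor markers was 1152 and 1064 RPKM in the controls and 861 and 822 RPKM in *Qk* cKO, and *Fabp7* and *Slc1a3* were the 2 called lower. *Fabp7* alone accounted for 989 and 901 against 703 and 667 RPKM. The other 6 markers summed to 163 and 163 against 158 and 156 RPKM, with a fold change above 1 in 3 of them and below 1 in 3. The summed level of the 6 neuronal markers found in the files overlapped between the groups (1052 and 1120 against 1068 and 965 RPKM). All 6 ventral diencephalon markers (*Nr5a1*, *Six6*, *Pomc*, *Nkx2-2*, *Sox14* and *Otp*) were called lower in *Qk* cKO, with a summed level of 4.02 and 10.2 RPKM in the controls and 2.11 and 1.19 RPKM in *Qk* cKO. No marker of intermediate progenitors, interneurons, endothelial cells, microglia, erythroid cells, meninges or the oligodendrocyte lineage was called in level. The part of these marker levels in the results below was not tested. In whole tissue, a change in the mix of cells and a change within cells cannot be told apart.

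Steady-state levels were compared to learn whether loss of *Qk* altered the amount of each transcript. None of the 10 transcripts was called by the quasi-likelihood test of edgeR, with calls at p below 0.01 and an FDR (Benjamini-Hochberg) below 0.1. Of the 18834 tested genes 0.584% were called, 0.207% higher and 0.377% lower in *Qk* cKO. The same 10 transcripts also gave 0 calls with edgeR's exact test and with DESeq2, and 1 had an unadjusted p below 0.05 in the quasi-likelihood test, against 8.76% of all genes. The RPKM values of the groups did not overlap for 5 of the 10, against 36.9% of all tested genes. Two-sided 95% intervals of the log2 fold change (*Qk* cKO over control) lay between -0.21 and 0.25 for the 9 transcripts other than *Mapre3*.

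Among the end-binding proteins, *Mapre1* (gene ID 13589) had 45.0 and 44.1 RPKM in the controls and 45.2 and 44.6 RPKM in *Qk* cKO. *Mapre2* (gene ID 212307) had 31.8 and 32.9 RPKM against 32.9 and 32.0 RPKM. The groups overlapped for both transcripts, with log2 fold changes of 0.02 ± 0.07 (SE) and 0.02 ± 0.06 (SE). *Mapre3* (gene ID 100732), which encodes the neuron-enriched EB3, had 28.0 and 30.5 RPKM in the controls and 24.3 and 23.8 RPKM in *Qk* cKO. Both *Qk* cKO samples lay below both controls, with a log2 fold change of -0.27 ± 0.10 (SE), but the difference did not pass the threshold (edgeR FDR = 0.393, 95% interval -0.47 to -0.06).

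Among the proteins recruited to the tip, *Clip1* (gene ID 56430), which encodes CLIP-170, had 37.9 and 41.3 RPKM in the controls and 42.3 and 41.5 RPKM in *Qk* cKO. *Clip2* (gene ID 269713), which encodes CLIP-115, had 42.8 and 44.9 RPKM against 41.2 and 40.4 RPKM. The groups did not overlap for either, with log2 fold changes of 0.10 ± 0.05 (SE) for *Clip1* and -0.09 ± 0.06 (SE) for *Clip2*, and neither was called. *Clasp1* (gene ID 76707) had 47.4 and 48.7 RPKM in the controls and 49.1 and 47.8 RPKM in *Qk* cKO. *Clasp2* (gene ID 76499) had 28.5 and 30.5 RPKM against 29.3 and 30.3 RPKM. Both CLASP transcripts overlapped between the groups, each with a log2 fold change of 0.03 ± 0.07 (SE).

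*Ckap5* (gene ID 75786), which encodes the polymerase chTOG, was the most abundant of the 10 with 81.3 and 83.3 RPKM in the controls and 87.4 and 85.8 RPKM in *Qk* cKO. Of the spectraplakins, *Macf1* (gene ID 11426) had 46.5 and 49.4 RPKM against 50.1 and 50.1 RPKM, and *Dst* (gene ID 13518) had 22.9 and 24.6 RPKM against 23.9 and 24.3 RPKM. The groups did not overlap for *Ckap5* and *Macf1* and overlapped for *Dst*, and the log2 fold changes were 0.09 ± 0.08 (SE), 0.08 ± 0.08 (SE) and 0.04 ± 0.08 (SE). In order of mean RPKM over the 4 samples, *Ckap5* was followed by *Macf1*, *Clasp1*, *Mapre1*, *Clip2*, *Clip1*, *Mapre2*, *Clasp2*, *Mapre3* and *Dst*. The ranges of neighbours over the 4 samples overlapped for *Macf1* and *Clasp1*, for *Mapre1* and *Clip2*, for *Clip2* and *Clip1*, for *Clasp2* and *Mapre3*, and for *Mapre3* and *Dst*, and were separate for the other neighbours.

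**Figure D1:**
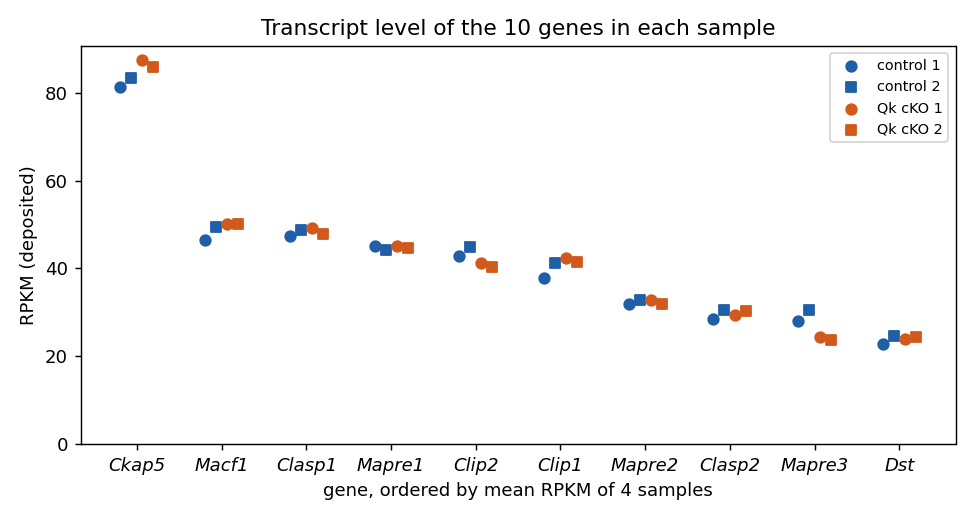
Level of each of the 10 transcripts in RPKM (vertical axis, from 0) in the 2 control (blue) and 2 *Qk* cKO (orange) samples, with genes ordered by their mean. Within a gene the 4 points lie close together, and *Mapre3* has the largest gap between the groups relative to its level.

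The splicing events were then compared to learn which exons of these transcripts depended on the genotype. Inclusion is the fraction of transcripts that carry the alternative segment, estimated from junction tags, and the inclusion change is control minus *Qk* cKO. Fisher's exact test (two-sided) was made on isoform tags summed over the 2 samples of a group, whereas inclusion comes from junction tags only. It was made for events with a coverage of at least 20. Coverage is the smallest of 4 sums of junction tags (each isoform over all samples, each group over both isoforms). Fisher's exact test counts each tag as independent and takes no account of the variation between embryos. For this reason edgeR's interaction test between isoform and genotype, on the same isoform tags, is given beside it.

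Of the 31 tested events, 7 were called by Fisher's exact test at p below 0.01 and FDR below 0.1, against 7.5% of all tested events. These 7 lay in 4 of the 8 genes with a tested event, *Dst*, *Clip1*, *Clasp1* and *Macf1* (10.9% of all genes with a tested event had a called one), with higher inclusion in control in 2 (3.53% of all tested events) and in *Qk* cKO in 5 (3.97%). An inclusion change of at least 0.1 was reached by 2 of the 7, the 111-nt exon of *Dst* and a tandem pair of exons of *Clip1*, against 3.3% of all tested events. In the *Clip1* pair, nearly all inclusion tags came from its 105-nt exon, which alone changed by -0.098. The edgeR interaction test called 1 event, the *Dst* exon, against 0.557% of all tested events (0.304% with higher inclusion in control, and 0.47% with a change of at least 0.1 in either direction). At an unadjusted p below 0.05 the interaction test gave 7 of the 31 events, against 7.17% of all, and Fisher's exact test 8 of the 31, against 16.8% of all. The 7 calls are not 7 separate exons, because the 2 events of *Clip1* share an exon and skipping tags, and the 2 events of *Macf1* differ by the start of 1 exon. Of the 7 calls, 4 remained without control 1, 2 without control 2, 1 without *Qk* cKO 1 and 5 without *Qk* cKO 2, where 1 event of *Clasp2* that is not among the 7 was called as well. The groups did not overlap in 12 of the 31 events (38.7%, against 37.9% of all tested events) and in all 7 of the called ones (91.6% of all called events). The median absolute inclusion change was 0.0131 over the 31 events and 0.0256 over all tested events, at a median coverage of 156 and 65.8 tags.

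**Figure D2:**
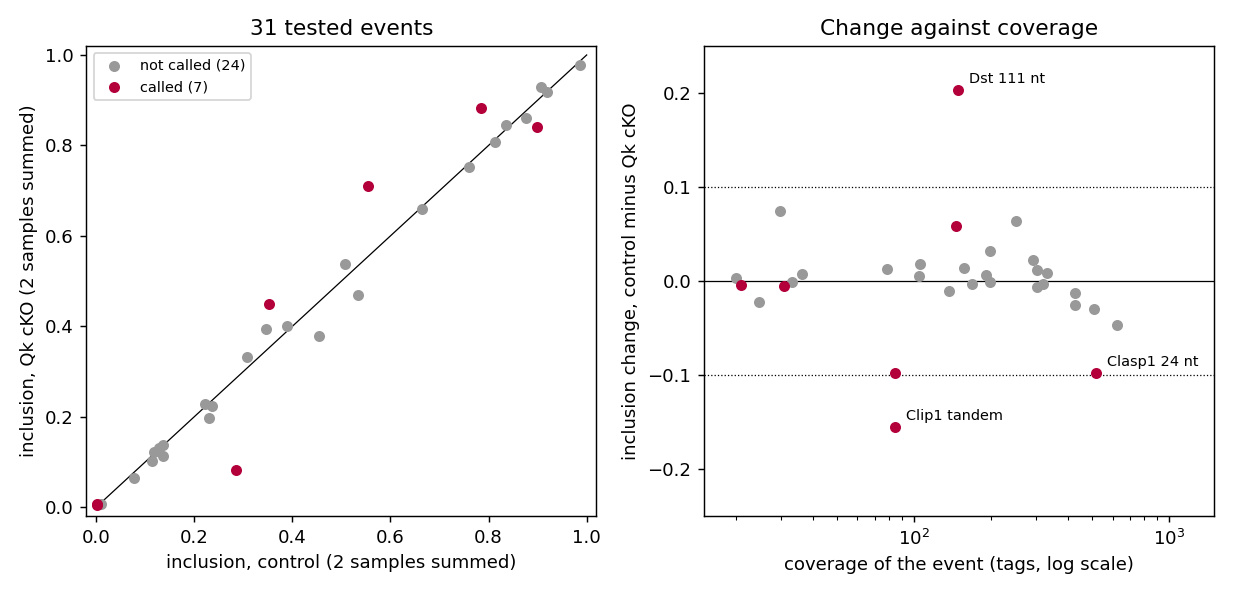
The left panel plots the inclusion of the 31 tested events in control (horizontal) against *Qk* cKO (vertical), and the right panel plots the inclusion change against the coverage in tags on a log scale, with called events in red and dotted lines at changes of 0.1 and -0.1. Most events lie on the diagonal, and the *Dst* exon lies farthest from it at a change of 0.203.

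The cassette exon of 111 nt in *Dst* was included less often in *Qk* cKO. It lies at chr1:34303421-34303531 on the plus strand, is exon 96 of 98 in transcript Dst-203 and is coding throughout, so that it adds 37 codons close to the 3′ end of the gene without a shift of the reading frame. Inclusion was 0.304 and 0.268 in the controls and 0.0688 and 0.0965 in *Qk* cKO. The 95% Wilson intervals, which cover counting error only, were 0.223 to 0.399 and 0.192 to 0.361 in the controls and 0.0328 to 0.138 and 0.0519 to 0.172 in *Qk* cKO. Both *Qk* cKO samples lay below both controls. The inclusion change was 0.203 (Fisher's exact test p = 5.95e-09, FDR = 5.16e-07; edgeR interaction p = 0.000889, FDR = 0.0887). It was between 0.186 and 0.221 when each sample was left out in turn, and Fisher's exact test called it each time.

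The tags showed the same difference on both sides of the exon. Tags on the junction into the exon numbered 37 and 25.3 in the controls and 8 and 10.2 in *Qk* cKO. Tags on the junction out of it numbered 25 and 30.3 in the controls and 5 and 8.16 in *Qk* cKO. Junction tags that skipped the exon numbered 71.0 and 75.7 in the controls and 88.0 and 85.8 in *Qk* cKO. The inclusion isoform had fewer tags on both of its junctions, while the level of the whole *Dst* transcript differed by 0.04 on the log2 scale. In the controls, the ventral diencephalon markers were 4.02 and 10.2 RPKM and *Dst* inclusion was 0.304 and 0.268. In *Qk* cKO these markers were 2.11 and 1.19 RPKM, below both controls. Without control 2 the inclusion change was 0.221. The part of these markers in the *Dst* difference was not tested.

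**Figure D3:**
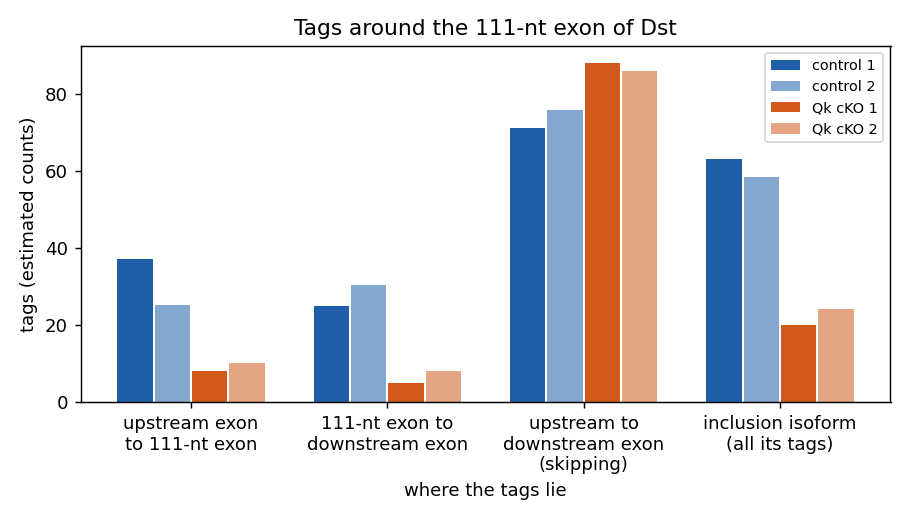
Tags (estimated counts, vertical axis from 0) on the junctions around the 111-nt exon of *Dst* and for its inclusion isoform, in each control (blue) and *Qk* cKO (orange) sample. The junctions into and out of the exon carry fewer tags in both *Qk* cKO samples, and the skipping junction carries 71.0 to 88.0 tags in the 4 samples.

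The other exons of *Dst* were not called. A 327-nt exon in the middle part of the gene (exon 65 of 103 in Dst-211) had an inclusion of 0.132 and 0.124 in the controls and 0.129 and 0.134 in *Qk* cKO. Tags on the junction into it numbered 38 and 36 in the controls and 45 and 43 in *Qk* cKO. Those on the junction out of it numbered 2 and 3 against 2 and 0, so its inclusion averages very unequal junctions. The next cassette exon upstream of the 111-nt exon, of 72 nt (exon 95 of Dst-201), had 0.0849 and 0.0713 against 0.0897 and 0.0425. In both of these exons the groups overlapped. An 18-nt exon (chr1:34296742-34296759, exon 93 of Dst-201) was nearly always skipped, with an inclusion of 0.0169 and 0.0454 in the controls and 0.0115 and 0.00433 in *Qk* cKO, and at a coverage of 18.3 tags it was not tested.

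In *Macf1*, 2 overlapping very short exons were called at inclusions below 0.01. They share their end and differ by 3 nt at their start, the longer at chr4:123368821-123368835 and the shorter at chr4:123368821-123368832 on the minus strand, and both are coding. The 12-nt form had an inclusion of 0.00145 and 0.00302 in the controls and 0.00949 and 0.00626 in *Qk* cKO, and the 15-nt form had 0.000736 and 0.00156 against 0.00516 and 0.00624. In these values both *Qk* cKO samples were above both controls in each form. Both forms count the same tags on the junction out of the exon. On the junction into it, the 15-nt form had 0.0113 and 0.0425 tags in the controls and 0.0915 and 4.09 in *Qk* cKO. Its value in *Qk* cKO 1 thus rests on the shared junction, and a rise of the 15-nt form in that sample was not shown. The 2 forms have the same isoform tags, so Fisher's exact test gave the same value for both (p = 0.0085, FDR = 0.0939), and the edgeR interaction test did not call them (FDR = 0.42). The calls rest on few tags, with 1.03 and 3.12 for the inclusion isoform in the controls and 8.27 and 10.2 in *Qk* cKO. Neither remained called with a minimum coverage of 10 (FDR = 0.113) or with adjustment over all event types (FDR = 0.109). Without control 1, without control 2 and without *Qk* cKO 2 the 12-nt form gave FDR = 0.523, 0.119 and 0.244 in Fisher's exact test, and without *Qk* cKO 1 it fell below the coverage minimum, as the 15-nt form did when any sample was left out.

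The remaining tested exons of *Macf1* were the 18-nt exon (exon 89 of Macf1-201) and a 63-nt exon (exon 47 of Macf1-201). Inclusion of the 18-nt exon was 0.762 and 0.758 in the controls and 0.737 and 0.768 in *Qk* cKO, and that of the 63-nt exon was 0.875 and 0.880 against 0.877 and 0.845. The groups overlapped in both, and neither was called.

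In *Clip1*, skipping of a 105-nt coding exon was less frequent in *Qk* cKO. This exon lies at chr5:123635174-123635278 on the minus strand and adds 35 codons. Its inclusion was 0.830 and 0.744 in the controls and 0.898 and 0.869 in *Qk* cKO, and both *Qk* cKO samples lay above both controls. The inclusion change was -0.098 (Fisher's exact test p = 0.00236, FDR = 0.0399), and the edgeR interaction test did not call it (FDR = 0.516). Skipping tags numbered 19 and 32 in the controls and 13 and 20 in *Qk* cKO, so control 2 had the most.

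The same skipping tags enter the tandem event of *Clip1*, in which a 33-nt exon precedes the 105-nt exon. Its inclusion was 0.625 and 0.5 in the controls and 0.731 and 0.695 in *Qk* cKO, without overlap of the groups. The inclusion change was -0.155 (Fisher's exact test p = 0.00255, FDR = 0.0374; edgeR interaction FDR = 0.54). The 33-nt exon alone was almost never included, at 0 to 0.0113 in the 4 samples with a coverage of 6.1 tags, so nearly all inclusion tags of the tandem event come from the 105-nt exon. The tandem value divides these tags over 3 inclusion junctions, so it is not the fraction of transcripts that carry both exons. The 105-nt exon by itself stayed below a change of 0.1. Without control 2 the inclusion change of the 105-nt exon was -0.0528 (FDR = 0.55) and that of the tandem event -0.0856 (FDR = 0.633), and without *Qk* cKO 1 they were -0.0849 (FDR = 0.262) and -0.14 (FDR = 0.28), so both calls of Fisher's exact test were lost without either of these samples. The other tested events of *Clip1* overlapped between the groups, among them a 117-nt exon with an inclusion of 0.398 and 0.378 against 0.437 and 0.358 and a 21-nt exon with 0.321 and 0.293 against 0.296 and 0.370.

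*Clasp1* had the most events of the 10 genes, with 12 deposited and 9 tested, and 2 exons of 24 nt were called in opposite directions. The upstream 24-nt exon (chr1:118512705-118512728, plus strand, coding) adds 8 codons. Its inclusion was 0.335 and 0.371 in the controls and 0.473 and 0.426 in *Qk* cKO, and both *Qk* cKO samples were higher. The inclusion change was -0.0981 (Fisher's exact test p = 0.000709, FDR = 0.0168), just below the limit of 0.1, and the edgeR interaction test did not call it (FDR = 0.506). It was -0.079 (Fisher FDR = 0.279) without control 1 and -0.0739 (Fisher FDR = 0.203) without *Qk* cKO 1, and neither was called.

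The downstream 24-nt exon of *Clasp1* (chr1:118541675-118541698, coding) also adds 8 codons. Its inclusion was 0.880 and 0.918 in the controls and 0.821 and 0.860 in *Qk* cKO, and both *Qk* cKO samples were lower. The inclusion change was 0.0584 (Fisher's exact test p = 0.00269, FDR = 0.0428), and the edgeR interaction test did not call it (FDR = 0.516). Without control 2 it was 0.04 (Fisher FDR = 0.357) and without *Qk* cKO 1 it was 0.0384 (Fisher FDR = 0.352), and the call was lost in both. The deposited junctions do not show which combination of the 2 exons a single transcript carries. Of the other *Clasp1* exons, a 27-nt exon had an inclusion of 0.832 and 0.839 in the controls and 0.845 and 0.847 in *Qk* cKO, and a 63-nt exon had 0.357 and 0.335 against 0.402 and 0.383. The groups did not overlap in either of these, and neither was called (Fisher FDR = 0.94 and 0.492). A second event of the same 63-nt exon, joined to a different upstream exon, had 0.923 and 0.887 against 0.920 and 0.940. There the groups overlapped, and it was not called. Both events of the 63-nt exon count the same tags on the junction out of it.

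**Figure D4:**
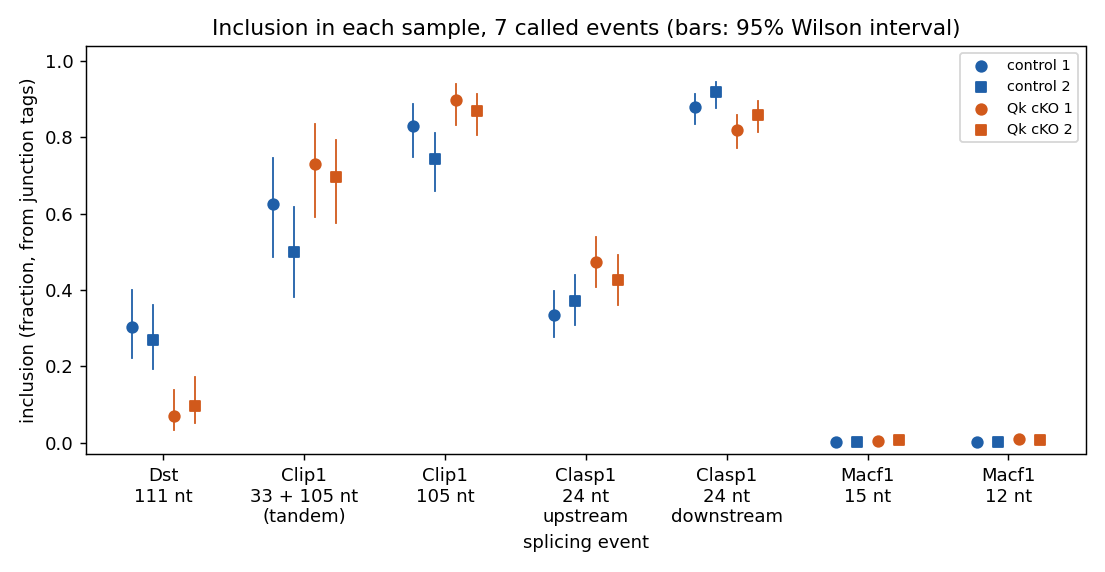
Inclusion (fraction, vertical axis) of the 7 called events in each control (blue) and *Qk* cKO (orange) sample, with 95% Wilson intervals of the junction tags as bars. The groups do not overlap in any of the 7 events, and the gap is widest for the 111-nt exon of *Dst*, at 0.268 to 0.304 against 0.0688 to 0.0965.

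No event was called in the remaining 4 genes with tested events. In *Clip2*, the 105-nt exon (chr5:134504734-134504838, minus strand, coding) had an inclusion of 0.566 and 0.498 in the controls and 0.453 and 0.488 in *Qk* cKO, and its inclusion change of 0.0634 did not pass the threshold (Fisher's exact test p = 0.0526, FDR = 0.285). In *Clasp2*, a tandem pair of 27-nt exons had 0.490 and 0.522 against 0.596 and 0.479, with a change of -0.03 (Fisher FDR = 0.465), and *Qk* cKO 1 alone was high. This pair passed Fisher's exact test only when *Qk* cKO 2 was left out (-0.0885, FDR = 0.0407) and changed direction without *Qk* cKO 1 (0.0283).

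For *Mapre3*, an alternative 5′ splice site had an inclusion of 0.254 and 0.221 in the controls and 0.195 and 0.255 in *Qk* cKO (change 0.0134, Fisher FDR = 0.977). For *Ckap5*, an alternative 3′ splice site had 0.981 and 0.992 against 0.972 and 0.984 (change 0.00772, Fisher FDR = 0.559). The groups overlapped in both, so the end-binding and polymerase genes had no called event.

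Many of the cassette exons of these genes were short, with a length that is a multiple of 3. Of the 29 distinct cassette exons in the deposited events of the 10 genes, 13 (44.8%) were at most 30 nt long, against 4.36% of 15084 cassette exons of other genes. A length that is a multiple of 3 was found in 27 of the 29 (93.1%), against 45.0% of those of other genes. The median length was 48 nt against 105 nt. These are lengths of catalogued exons, independent of the genotype, and exons of 1 gene are not independent of each other.

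Several of the alternative exons have a counterpart of the same length in the paralog, paired by sequence after the values had been seen. The 18-nt exons of *Macf1* and *Dst* were identical at 16 bases (88.9%), the downstream 24-nt exons of *Clasp1* and *Clasp2* at 17 (70.8%), and the upstream ones at 13 (54.2%). The 63-nt exons of *Clasp1* and *Clasp2* were identical at 42 bases (66.7%) and the 105-nt exons of *Clip1* and *Clip2* at 73 (69.5%). Exons of equal length in genes that are not paralogs were identical at 16.7% to 30.2% of bases.

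The inclusion of these paired exons is given side by side, and differences between paralogs were not tested. The 18-nt exon of *Macf1* was included at 0.737 to 0.768 over the 4 samples, while that of *Dst* was included at 0.00433 to 0.0454. The upstream 24-nt exon of *Clasp2* was included at 0.892 and 0.992 in the controls and 0.989 and 0.996 in *Qk* cKO, against 0.335 to 0.473 for that of *Clasp1*, and its coverage of 19.8 tags was just below the minimum. The downstream 24-nt exon of *Clasp2* was included at 0.800 and 0.828 in the controls and 0.834 and 0.779 in *Qk* cKO, overlapping between the groups where the *Clasp1* exon did not. The 63-nt exon of *Clasp2* was included at 0.149 and 0.124 against 0.104 and 0.123, and was not called (Fisher's exact test p = 0.0463, FDR = 0.264). For the 105-nt exons, inclusion was higher in *Qk* cKO in *Clip1* (-0.098) and lower in *Clip2* (0.0634, not called). With a minimum coverage of 10 tags, the 18-nt exon of *Dst* (change 0.0228, FDR = 0.039) and the upstream 24-nt exon of *Clasp2* (change -0.0496, FDR = 0.0282) were called by Fisher's exact test. In the *Clasp2* exon control 1 alone was low, so the groups overlapped.

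**Figure D5:**
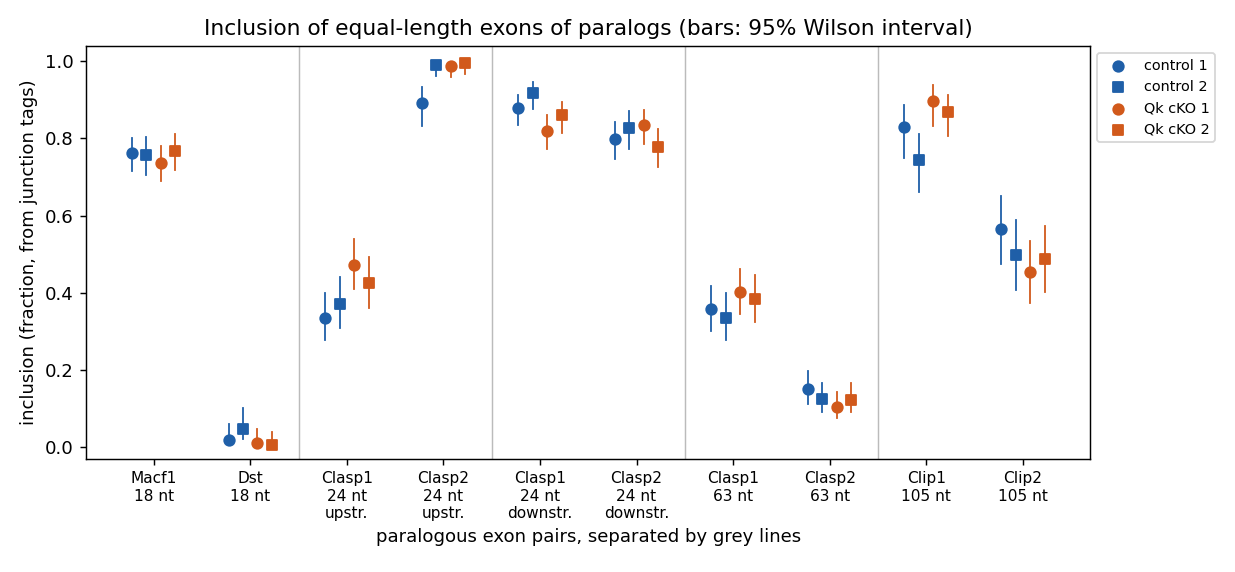
Inclusion (fraction, vertical axis) of equal-length exons in paralogs, in pairs separated by grey lines, for each control (blue) and *Qk* cKO (orange) sample with 95% Wilson intervals of the junction tags. The members of a pair lie farthest apart for the 18-nt exons, at 0.737 to 0.768 for *Macf1* and 0.00433 to 0.0454 for *Dst*.

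Other plus-end proteins were read from a list of 21 genes, of which 20 were found in the files. Of these, 0 were called higher and 1 lower in level, *Tacc1*, a partner of chTOG, with 7.63 and 8 RPKM in the controls and 5.5 and 5.65 RPKM in *Qk* cKO (log2 fold change -0.47 ± 0.10 SE, edgeR FDR = 0.043). Among 29 tested events of the list 6 were called by Fisher's exact test (20.7%, against 7.5% of all). They lay in 3 of the 13 genes with a tested event (10.9% of all such genes had a called one). *Dctn1*, which encodes the dynactin subunit that binds CLIP-170 and EB1, had an 18-nt exon included at 0.775 and 0.800 in the controls and 0.963 and 0.991 in *Qk* cKO (change -0.195, Fisher FDR = 0.00185, edgeR interaction FDR = 0.147), at a coverage of 22.1 tags. A neighbouring 21-nt exon and the tandem pair of both shared its skipping tags. *Apc* had a pair of mutually exclusive events that shared their isoform tags (change 0.104 and 0.129, Fisher FDR = 0.0909, edgeR interaction FDR = 1). Because of these shared tags, the 6 calls are not 6 separate events.

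In the complex that captures plus ends at the cell cortex, 0 of 6 genes were called in level and 7 of 31 tested events were called (22.6%, against 7.5% of all), in 2 of the 4 genes with a tested event (10.9% of all such genes). *Phldb1*, which encodes LL5-alpha, had a 129-nt exon included at 0.559 and 0.641 in the controls and 0.857 and 0.731 in *Qk* cKO (change -0.191, Fisher FDR = 0.0134, edgeR interaction FDR = 0.427). *Kif21a*, which encodes a kinesin that restrains microtubule growth at the cortex, had a 21-nt exon included at 0.65 and 0.641 against 0.509 and 0.525 (change 0.129, Fisher FDR = 0.000227, edgeR interaction FDR = 0.314). In each of these exons of *Dctn1*, *Phldb1* and *Kif21a* the groups did not overlap. None of the 5 other plakin genes was called in level by edgeR's quasi-likelihood test, and none had a tested event.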

How the data were processed

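Per the methods, the authors mapped paired reads of 150 nt with OLego to known exon junctions and the mm10 genome, and counted tags in Quantas. The authors deposited, per gene, estimated counts of tags and RPKM, and, per splicing event, estimated counts of isoform and junction tags. How tags of similar genes or overlapping exons were assigned is part of these values, and unstranded libraries (TruSeq v2) cannot separate antisense genes. Tags were rounded and compared by edgeR 4.0.16 (quasi-likelihood, TMM, R 4.3.3) over 18834 genes with at least 1 tag, or with Fisher's exact test (scipy), adjusted by Benjamini-Hochberg within event type. The SE and 95% interval of each log2 fold change were calculated back from the F statistic of the quasi-likelihood test. A cassette inclusion is the inclusion junction tags divided by these plus 2 times the skipping tags. Alternatives were DESeq2 1.42.0, other scalings and filters, the edgeR interaction test and left-out samples. The edgeR, DESeq2 and Fisher tests were tested on simulated data. With simulated variation between samples, Fisher's exact test made many more false splicing calls than the edgeR interaction test. The size of this splicing variation was set and not estimated from these samples, and the difference depends on it. The genes, lists and tests were chosen with earlier results of these data known. The labels number the samples within each group and do not say whether a sample is 1 embryo. The paper's results describe 2 independent littermates per genotype, while its methods give a larger number of replicates. All 10 genes, every called event and, for genes with none, the event with the largest change are named. From the other lists, genes called in level or with a called event of at least 0.1 are named, and the marker genes of ventral diencephalon are given as a sum. Introns were not analysed here.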

Additional observations from a re-analysis of the deposited data

How the results depend on the processing

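With 2 samples per group, the calls depend on single samples and on the test. Over all genes, level calls went from 110 to 57 with edgeR's exact test, to 11 with edgeR's filterByExpr and to between 0 and 428 when 1 sample was left out, assuming that the lone sample of a group varies like the others. None of the 10 transcripts was called under any of these alternatives (0 in each). Over all events, calls went from 862 to 64 with the edgeR interaction test and to between 488 and 722 when 1 sample was left out. For the 10 genes, calls went from 7 to 1 with the interaction test and to between 1 and 6 when 1 sample was left out, with 1 to 5 of the original 7 among them. Calls with a change of at least 0.1 went from 2 to 1 with the interaction test and to between 1 and 4 when 1 sample was left out.

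Direction changed only in values that were not called. With 1 sample left out, the log2 fold change was between -0.0169 and 0.0464 for *Mapre2*, between -0.00715 and 0.0532 for *Clasp1*, between -0.018 and 0.0744 for *Clasp2*, and between -0.0126 and 0.0855 for *Dst*. The inclusion change was then between -0.0178 and 0.042 for the alternative 5′ splice site of *Mapre3* and between -0.0885 and 0.0283 for the tandem exons of *Clasp2*. The causes were not tested.

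The replicate numbers come from the labels, and no label says that equal numbers share a litter. Deviations of samples of equal number correlated at 0.534 over 12958 genes and at -0.0648 over the 12466 autosomal ones, and inclusion differences at 0.0106 over 6965 events. With the replicate block, 193 genes and none of the 10 transcripts were called in level, and the block in a Cochran-Mantel-Haenszel test gave 903 splicing calls, with 7 in the 10 genes.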
